A study of Mus musculus with 24 samples.

Results

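Choroid plexus epithelium genes were followed in RNA-sequencing libraries of mouse hypothalamus. The 10 genes were Ttr, Folr1, Aqp1, Slc4a5, Clic6, Kl, Sostdc1, F5, Calml4 and Tmem72. They were chosen by symbol as genes of this epithelium, which vary strongly between single dissections, and not by a comparison between the groups. They are 10 of the 55471 genes in the count table, and all 10 were among the 18992 genes that passed the filter on low counts and were tested. Levels are CPM, the share of a library's counts times 1e+06 after TMM scaling of library sizes.

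All mice were 18-week-old chow-fed C57BL6/J males with a gastric infusion line. ExpOF mice received a liquid diet through it to day 14, and Control mice received sterile water at the same flow rates. Hypothalami were taken on day 14 (d14), the end of overfeeding, or on day 17 (d14+3), after 3 days in which both groups received water. Each infusion and day made a group, named Control or ExpOF with d14 or d14+3, and the 4 groups had 6 libraries each, 1 per mouse. The comparisons address the response of the hypothalamus to overfeeding and to the recovery that follows it. The study removed 1 Control d14 mouse for poor RNA quality, which the labels do not name. Replicate 4 was taken as that mouse, since the study's table of mean expression matches the group without it, and its labelled RNA integrity number (RIN) was 9.8. It is given below only as single values, which leaves 23 libraries and 5 Control d14 mice.

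The choroid plexus is a fold of vascular tissue that hangs into the brain ventricles, and its epithelium secretes cerebrospinal fluid. The epithelial cells move ions, bicarbonate and water from blood to fluid, carry hormones and vitamins across, and release proteins such as transthyretin. The third ventricle, which runs through the middle of the hypothalamus, has choroid plexus in its roof.

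RefSeq promoter entries on mouse assembly GRCm38.p6 were read for 6 of the 10 genes, and the 250 bases before the start are given for 4 of these. Ttr was left out of this reading, and Folr1, Clic6 and Sostdc1 had no entry in it, so the counts below do not cover these genes. Slc4a5, Tmem72 and F5 had the largest fold among the 6 in Control d14 replicate 5, and Kl was the 1 promoter with a GC box on both strands. Capitals mark the GC box (GGGCGG or its reverse complement CCGCCC) and the TATA box (TATAAA or TTTATA), and each sequence is on the strand of its gene. The Slc4a5 entry lies inside the gene as counted, whose first base is upstream of it. The Tmem72 window runs into the gene as counted, whose first base on the minus strand is 116716913. The Calml4 window, not printed here, also runs into its gene as counted.
Slc4a5 (chr6:83237125-83237374, plus strand): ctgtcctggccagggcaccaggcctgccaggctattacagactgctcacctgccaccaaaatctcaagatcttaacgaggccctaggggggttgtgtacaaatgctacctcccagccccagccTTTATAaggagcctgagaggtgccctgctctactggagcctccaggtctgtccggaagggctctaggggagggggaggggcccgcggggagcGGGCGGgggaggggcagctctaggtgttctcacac
Tmem72 (chr6:116716759-116717008, minus strand): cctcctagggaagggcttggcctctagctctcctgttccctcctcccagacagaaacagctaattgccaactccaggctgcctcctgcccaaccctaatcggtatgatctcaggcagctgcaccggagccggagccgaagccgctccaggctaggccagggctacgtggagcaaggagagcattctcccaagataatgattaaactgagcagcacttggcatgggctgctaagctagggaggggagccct
F5 (chr1:164151585-164151834, plus strand): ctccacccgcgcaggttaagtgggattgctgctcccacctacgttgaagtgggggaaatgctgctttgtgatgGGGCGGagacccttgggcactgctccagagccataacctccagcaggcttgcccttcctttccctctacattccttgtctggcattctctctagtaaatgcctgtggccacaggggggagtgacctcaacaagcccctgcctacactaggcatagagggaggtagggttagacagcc
Kl (chr5:150952357-150952606, plus strand): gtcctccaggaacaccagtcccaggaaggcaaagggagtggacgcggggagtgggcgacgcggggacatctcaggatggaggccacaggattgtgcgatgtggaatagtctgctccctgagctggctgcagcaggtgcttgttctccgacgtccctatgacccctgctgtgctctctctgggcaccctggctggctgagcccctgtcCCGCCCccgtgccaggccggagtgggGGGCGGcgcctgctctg
A GC box stood in 5 of the 6 promoters (F5, Kl, Aqp1, Slc4a5 and Calml4), against 32.7% of 32851 mouse promoters of the same length. The TATA box letters stood in that of Slc4a5, against 12.4% of all. The OTX2 motif TAATCC (6.25% of all promoters), the forkhead motif GTAAACA (3.17%), the homeodomain motif TAATTA (4.84%) and CCAAT (33.8%) were in 0 of the 6. Both strands were searched, and these counts describe letters in these windows only.

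The 24 libraries held 8928182 to 34848437 counts, with a median of 23142768.5. All 12 listed hypothalamus genes were detected, at a summed 624 to 1517 CPM in the 23 libraries. Choroid plexus genes set 3 libraries apart from the rest, namely Control d14 replicate 5, ExpOF d14+3 replicate 4 and the omitted Control d14 replicate 4. Their RINs were 8, 9.7 and 9.8, within the 7.2 to 10 of all libraries. All 3 came from mice euthanized in September, not July, and from the second RNA extraction round. There were 7 libraries of that cohort and round, and the other 4 held Ttr at 1.97 to 23.9 CPM. Each of the 10 genes was highest in replicate 5 within Control d14 (18.6% of all tested genes were) and in replicate 4 within ExpOF d14+3 (6.07% were). Both held for all 10, against 1.69% of tested genes. These shares describe the pattern and do not test it. The genes were chosen as variable between dissections, and these libraries for their high Ttr. In bulk tissue, more cells of a type and more RNA per cell cannot be told apart.

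**Figure D1:**
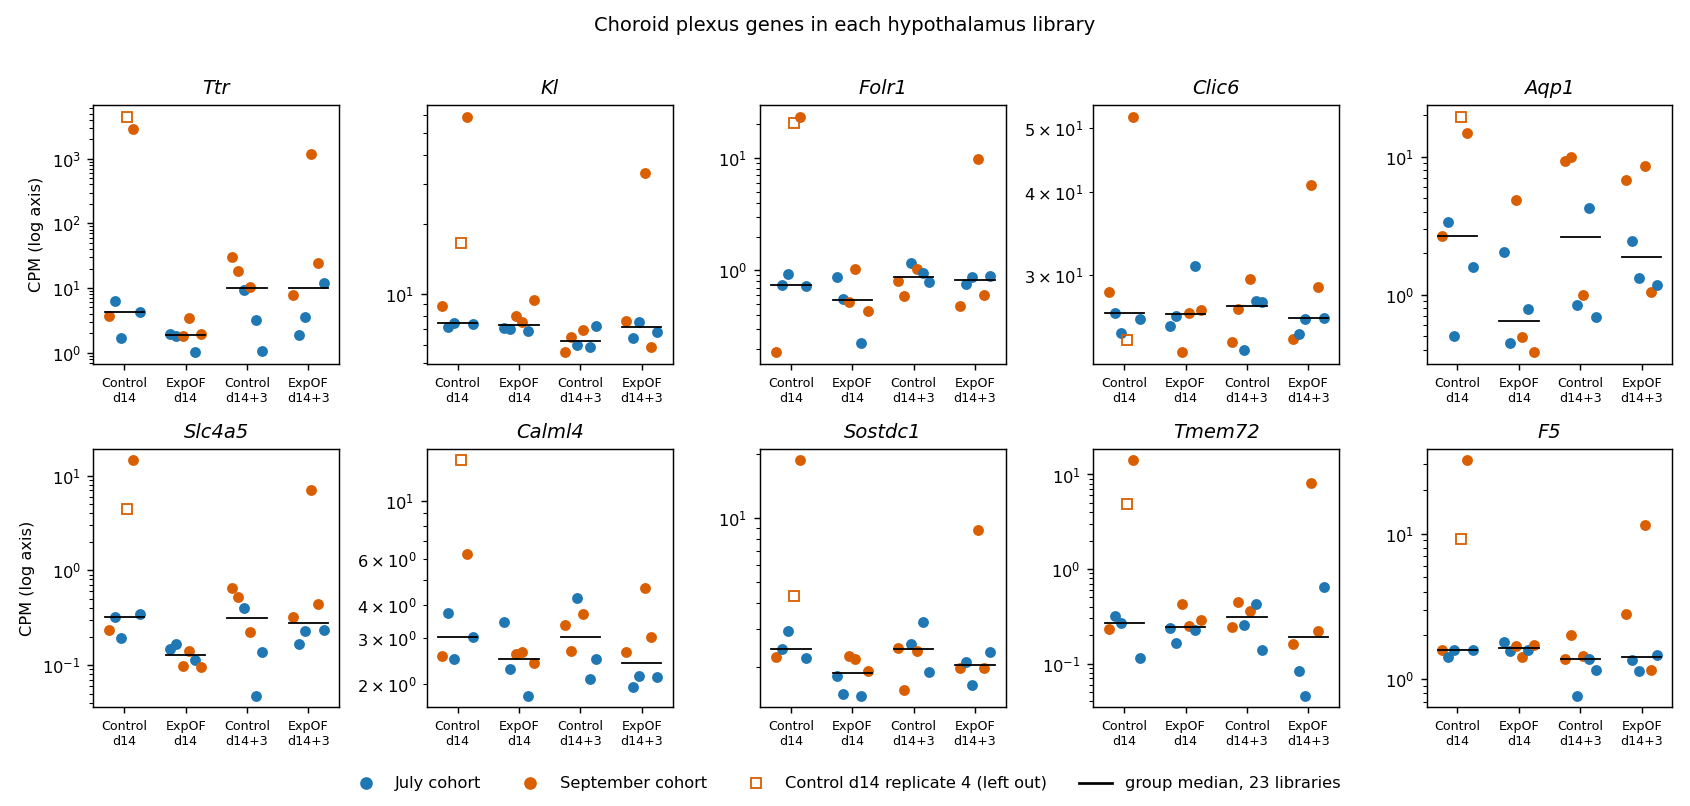
CPM (log axis) of each gene in every library by group, with circles coloured by the month of euthanasia, an open square for the omitted Control d14 replicate 4, and lines at group medians of the 23 libraries. Control d14 replicate 5 and ExpOF d14+3 replicate 4 lie above the rest of their groups for all 10 genes, with Ttr at 2889 and 1204 CPM.

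Carriers came first in size. Ttr encodes transthyretin, which carries thyroxine and retinol-binding protein and is the signature product of this epithelium. In Control d14 it was at 3.64, 6.25, 1.67, 2889 and 4.19 CPM in replicates 1, 2, 3, 5 and 6. ExpOF d14 held 1.01 to 3.46 CPM (median 1.88), and Control d14+3 held 1.06 to 29.9 CPM (median 9.91). ExpOF d14+3 held 1.85 to 1204 CPM (median 9.90), with 23.9 CPM as the next to highest. Control d14 and ExpOF d14+3 each had 1 mouse far above the rest, and the groups overlapped on both days. The omitted library held 4426 CPM, the highest of all 24. Ttr alone made up 0.291% of the counts of Control d14 replicate 5 (95% exact binomial interval from 0.289% to 0.292%), 0.120% in ExpOF d14+3 replicate 4 (0.119% to 0.121%) and 0.396% in the omitted library (0.392% to 0.399%). These intervals cover counting error only.

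Folr1 encodes folate receptor alpha, which brings folate across the epithelium. It was at 0.186, 0.736, 0.929, 23.2 and 0.718 CPM in replicates 1, 2, 3, 5 and 6 of Control d14, and at 9.75 CPM in ExpOF d14+3 replicate 4. The other 21 libraries of the 23 held 0.186 to 1.17 CPM. The omitted library, at 20.5 CPM, was close to replicate 5. Folr1 overlaps Anapc15 on the opposite strand.

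Ion and water transport differed more from gene to gene. Slc4a5, a sodium bicarbonate cotransporter, was at 0.233, 0.322, 0.194, 14.4 and 0.345 CPM in the Control d14 mice in the same order. In ExpOF d14 it was at 0.0959 to 0.167 CPM (median 0.127), so that every ExpOF d14 mouse was below every Control d14 mouse. These low values rest on 1 to 5 reads in ExpOF d14 and on 5, 7, 5 and 12 reads in the Control mice other than replicate 5. ExpOF d14+3 replicate 4 reached 7.11 CPM and the omitted library 4.40 CPM, and d14+3 libraries otherwise held 0.0476 to 0.645 CPM.

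Aqp1 encodes a water channel of the fluid-facing membrane, and it was the member with high values in other libraries too. Control d14 held 2.66, 3.36, 0.503, 14.8 and 1.58 CPM, and ExpOF d14 held 0.384 to 4.84 CPM (median 0.642). On d14+3, Control mice held 0.693 to 10.0 CPM (median 2.64) and ExpOF mice 1.05 to 8.65 CPM (median 1.88). Replicates 1 and 2 of Control d14+3, at 9.32 and 10.0 CPM, exceeded ExpOF d14+3 replicate 4, whereas their Ttr stood at 29.9 and 18.3 CPM. The groups overlapped on both days.

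Clic6, of the chloride intracellular channel family, changed least in the libraries that stood apart. It was at 52.0 CPM in Control d14 replicate 5, at 41.0 CPM in ExpOF d14+3 replicate 4 and at 24.0 CPM in the omitted library. The other 21 libraries held 22.9 to 31.0 CPM, so the omitted library was not high for this gene.

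Among secreted and signalling proteins, Kl encodes klotho, a co-receptor for a fibroblast growth factor that controls phosphate. It was at 58.6 CPM in Control d14 replicate 5, 33.4 CPM in ExpOF d14+3 replicate 4 and 16.6 CPM in the omitted library, and within 5.56 to 9.35 CPM in the other 21. Sostdc1, a secreted inhibitor of BMP and Wnt signals, was at 18.7, 8.78 and 4.30 CPM in these 3 libraries and at 1.46 to 3.23 CPM in the others. F5 encodes coagulation factor V, a cofactor in the formation of thrombin. Its 3 values were 31.8, 11.4 and 9.11 CPM, against 0.770 to 2.81 CPM in the others. All 3 genes thus had all 3 libraries above the other 21. F5 overlaps Gm16588 on the same strand and Gm16548, with shared exon bases, on the opposite strand.

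Calml4, a calmodulin-like protein, and Tmem72, a transmembrane protein, had unlike orders. Calml4 was at 6.26 CPM in Control d14 replicate 5, 4.66 CPM in ExpOF d14+3 replicate 4 and 14.2 CPM in the omitted library, against 1.80 to 4.25 CPM in the rest. For Tmem72 the 3 values were 14.1, 8.21 and 4.92 CPM, against 0.0457 to 0.648 CPM, which rests on as few as 1 read. Calml4 overlaps Gm10653 on the opposite strand, and Clic6 overlaps 2410124H12Rik on its own strand. Of the overlapping pairs named here, only F5 and Gm16548 had shared exon bases in the annotation used. Whether the counting used strand is not given in the sources used here, so reads of that pair may be shared.

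Levels between genes were compared as CPM per kilobase of counted gene length. Over the 21 libraries, the median level was highest for Clic6 (6.64), then Ttr (2.97), Sostdc1 (1.23), Kl (0.760), Calml4 (0.714), Aqp1 (0.505), Folr1 (0.330), F5 (0.198), Slc4a5 (0.0388) and Tmem72 (0.0141). In Control d14 replicate 5 the order opened with Ttr (2436 CPM per kilobase), followed by Clic6 (13.3), Sostdc1 (10.5) and Folr1 (10.1). Ttr, second in the 21 libraries, was thus far ahead of the other members in this library.

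The excess of a library was taken as its CPM minus the median CPM of the rest of its group. For all 10 genes the excess was larger in Control d14 replicate 5 than in ExpOF d14+3 replicate 4. Their ratio ran from 1.39 for Calml4 to 3.01 for F5, with a median of 1.99. The excess itself spanned from 3.47 CPM for Calml4 to 2885 CPM for Ttr in replicate 5. The omitted library had another pattern. Its CPM over that of Control d14 replicate 5 ran from 0.231 for Sostdc1 to 2.27 for Calml4, with a median of 0.405. It was above 1 for 3 genes, namely Ttr (1.53), Aqp1 (1.31) and Calml4.

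**Figure D2:**
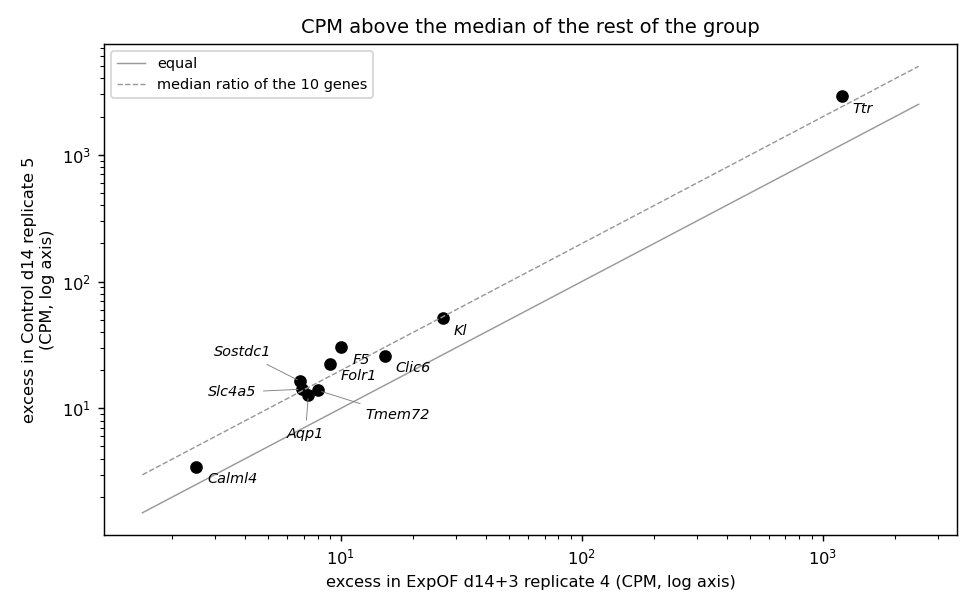
Excess CPM over the median of the rest of the group, in Control d14 replicate 5 against ExpOF d14+3 replicate 4, 1 point per gene, on log axes, with a solid line of equal values and a dashed line at the median ratio of 1.99. All 10 points lie above the solid line and close to the dashed one.

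Spread between mice of a group was taken as the SD of log2 CPM pooled over the 4 groups. The members were chosen as variable between dissections, so their ranks describe this and do not test it. Ttr, with an SD of 2.78, ranked 1 of 18992 genes, where the median gene had 0.197. Tmem72 (1.64, rank 16), Slc4a5 (1.53, rank 23), Aqp1 (1.52, rank 26), Folr1 (1.41, rank 35) and F5 (1.11, rank 76) followed, and Clic6 was the least variable member (0.272, rank 6409). Without the pair of libraries with the highest Ttr, Ttr was at 1.24 (rank 49) and Aqp1 at 1.38 (rank 34). Kl fell to 0.153 (rank 12494) and Clic6 to 0.122 (rank 14918), both under the median gene at 0.200. Hence Ttr and Aqp1 kept a wide spread among the 21 libraries, and Kl and Clic6 did not.

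On d14, all 10 genes had a lower fitted level in ExpOF than in Control mice. edgeR called 0 of 10 after adjustment over all tested genes (threshold 0.05), where the background was 1 gene, or 0.00527%. At an unadjusted p under 0.05, 7 of 10 were lower, against 26.7% of tested genes. The median log2 fold change of the 10 was -1.92, against -0.021 for all genes. The log2 fold change was -8.10 for Ttr (SE 2.30, edgeR adjusted p = 0.135), -4.57 for Slc4a5 (SE 1.40, adjusted p = 0.135) and -3.45 for Tmem72 (SE 1.32, adjusted p = 0.141). Folr1 (-2.99), F5 (-2.23), Sostdc1 (-1.60), Aqp1 (-1.49), Kl (-1.23), Calml4 (-0.48) and Clic6 (-0.26) were nearer to 0. Within July mice alone the median of the 8 members that could be fitted was -0.27 (Ttr -1.24), and within September mice that of all 10 was -2.85 (Ttr -9.21). The September mice included only 2 used Control d14 mice, replicate 1 and the high replicate 5. A difference in response between the cohorts cannot be read from these values. DESeq2 called 0 of the 3 members for which it gave an adjusted p. For the other 7 it gave a log2 fold change but neither an unadjusted nor an adjusted p.

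These sizes rested on 1 Control mouse. Without Control d14 replicate 5, the log2 fold change of Ttr was -0.88, that of Slc4a5 -1.08, that of Folr1 -0.0029, that of Kl -0.0054 and that of F5 0.074, and Tmem72 no longer passed the filter. Without Control d14 replicate 1, in contrast, edgeR called 4220 of 19206 genes, or 22%, and with them 5 of the 10 members as lower in ExpOF mice. These were Ttr (-8.42, adjusted p = 0.0224), Slc4a5 (adjusted p = 0.0265), Sostdc1 (adjusted p = 0.0303), Folr1 (adjusted p = 0.0320) and F5 (adjusted p = 0.0393), all still with replicate 5 in the Control group. Exact permutation over the mice (two-sided, on mean log2 CPM) gave p = 0.00216 for Slc4a5, the smallest that 5 against 6 mice allow. Sostdc1 had an exact p = 0.00649 and Ttr an exact p = 0.0216, and the other 7 members had exact p-values from 0.106 to 0.554. These 3 of 10 with an exact p under 0.05 stood against 24.4% of tested genes, a share near that of the members. Slc4a5 was the 1 member of 10 whose groups did not overlap, against 2.5% of tested genes. Without both high libraries, Slc4a5 (-0.75 in mean log2 CPM, exact p = 0.00476) and Sostdc1 (-0.41, exact p = 0.0190) were lower in ExpOF mice, and Ttr was at -0.89 (exact p = 0.0952), so that 2 of 10 had an exact p under 0.05, against 15.9% of tested genes. These exact values are not adjusted for the number of genes.

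On d14+3, edgeR called 0 of 10 members after adjustment (0% of tested genes), and 1 of 10 at an unadjusted p under 0.05, against 7.11%. That gene was Ttr, with a log2 fold change of 4.11 (SE 1.82, unadjusted p = 0.0356, adjusted p = 0.677). Tmem72 (2.42), Slc4a5 (2.16), Folr1 (1.41), F5 (1.31), Kl (0.86), Sostdc1 (0.46) and Clic6 (0.11) were also above 0, and Aqp1 (-0.25) and Calml4 (-0.15) below. Without ExpOF d14+3 replicate 4, Ttr was at -0.34, Folr1 at -0.31, Sostdc1 at -0.22 and Clic6 at -0.029, so that these 4 turned direction. The medians of the 2 groups for Ttr differed little, at 9.91 CPM in Control and 9.90 CPM in ExpOF mice. No member gave groups without overlap (0.421% of tested genes), and the exact permutation p-values ran from 0.121 to 0.987, with 0 of 10 under 0.05, against 6.25% of tested genes. Without both high libraries, 0 of 10 had an exact permutation p under 0.05, against 5.68%.

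**Figure D3:**
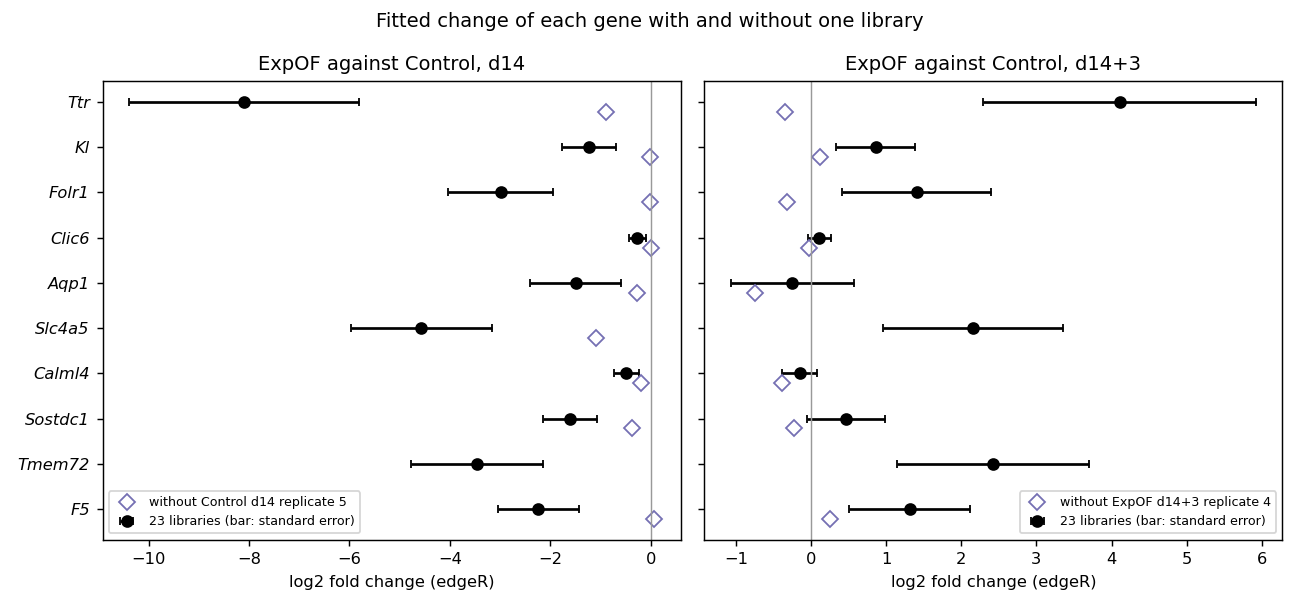
Fitted log2 fold change of ExpOF against Control mice on d14 (left) and d14+3 (right) for each gene, as circles with standard errors over 23 libraries, and as open diamonds without Control d14 replicate 5 (left) or ExpOF d14+3 replicate 4 (right). For Ttr the diamonds lie at -0.88 and -0.34 and the circles at -8.10 and 4.11, and a gene with no diamond did not pass the filter in that fit.

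The ExpOF effect on d14+3 minus that on d14 was above 0 for all 10 genes. edgeR called 0 of them (0% of tested genes), and 7 of 10 had an unadjusted p under 0.05, against 4.42%. Ttr had the largest difference, 12.20 on the log2 scale (SE 2.93, unadjusted p = 0.000514, adjusted p = 0.903 by edgeR). Control d14 and ExpOF d14+3, the groups of the 2 high libraries, enter this contrast with the same sign. The difference for Ttr was 4.99 without Control d14 replicate 5 and 7.77 without ExpOF d14+3 replicate 4. Without both it was 0.59 for Ttr, -0.46 for Aqp1 and -0.30 for Folr1.

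Cohorts were crossed with the groups, so the months could be compared with group and extraction round in the model. All 10 genes were higher in September than in July mice, with edgeR calling 0 of 10 (0% of tested genes) and 6 of 10 at an unadjusted p under 0.05, against 4.28%. Ttr differed by 4.28 (SE 1.32), Slc4a5 by 2.65 (SE 0.74), Tmem72 by 2.34 (SE 0.78) and Aqp1 by 1.73 (SE 0.52) on the log2 scale, each with an edgeR adjusted p of 1. Both high libraries were September mice. Without them, Ttr differed by 1.26 and Aqp1 by 0.87, while Folr1 was at -0.42 and Sostdc1 at -0.014.

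Co-variation was taken among the other 21 libraries, since the 2 high ones form a cluster of their own. Of the other 9 members, 1 followed Ttr at an adjusted p under 0.05, against 21.2% of 18991 genes. That gene was Slc4a5, with Pearson r = 0.82 (permutation p = 2e-05, adjusted p = 0.00290) and Spearman rho = 0.82 (adjusted p = 0.00904). Without the 2 libraries farthest from the median Ttr its r was 0.73, and it was 0.62 in the 12 July and 0.95 in the 9 September libraries. Calml4 (r = 0.51, permutation adjusted p = 0.0724), Kl (r = -0.51, adjusted p = 0.0666) and Aqp1 (r = 0.45, adjusted p = 0.120) did not pass. The 2 genes of each pair share library, depth and scaling, and Slc4a5 and Tmem72 rest on 1 to 16 reads in these libraries.

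The genes outside the 10 that tracked the mean of the members most closely over the 23 libraries were Enpp2 (r = 0.95), Abca4, Mfrp, Kcne2 and 1500015O10Rik (each 0.92), Cldn2 (0.91), Pcolce (0.89), Col9a3 (0.87), Trpv4 (0.86) and Col8a2 (0.86). These values rest on the 2 high libraries. Over the other 21, r was 0.33 for Enpp2, 0.11 for Abca4, 0.38 for Mfrp and 0.68 for Pcolce. Of these 10 genes, 6 stood in a separate list of 26 other choroid plexus epithelium genes, of which 23 were tested. Within their groups, 21 of the 23 were highest in Control d14 replicate 5 (18.6% of tested genes), 18 in ExpOF d14+3 replicate 4 (6.07%) and 18 in both (1.69%).

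The 5 most abundant genes of that list were Enpp2, Ace, Prlr, Car14 and Rdh5. Enpp2, which makes lysophosphatidic acid, was at 1186 CPM in Control d14 replicate 5, 675 CPM in ExpOF d14+3 replicate 4 and 569 CPM in the omitted library, against 211 to 288 CPM in the other 21. Ace, angiotensin-converting enzyme, was at 85.7, 59.3 and 45.7 CPM, against 35.4 to 52.7 CPM. Prlr, the prolactin receptor, was at 32.3, 45.5 and 18.8 CPM and thus not above the 23.9 to 53.6 CPM of the others. Car14, a carbonic anhydrase, was at 25.5, 19.5 and 18.7 CPM, against 13.3 to 22.2 CPM, so that only Control d14 replicate 5 was above the others. Rdh5, a retinol dehydrogenase, was at 16.5, 12.9 and 29.1 CPM, against 5.90 to 9.72 CPM. edgeR called 0 of the 23 on d14 (0.00527% of tested genes) and 0 on d14+3 (0%). At an unadjusted p under 0.05 there were 15 of 23 on d14, 1 of them higher, against 26.7%, and 0 of 23 on d14+3, against 7.11%.

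Markers of other cell types and regions, and hormone and lipoprotein receptors listed for the choroid plexus, were summed in the same libraries. In Control d14 replicate 5, ExpOF d14+3 replicate 4 and the omitted library, the 12 ependymal genes came to 209, 179 and 290 CPM, against 158 to 232 CPM in the other 21. The 12 leptomeningeal genes came to 641, 353 and 1506 CPM, against 284 to 705 CPM, and the 7 tanycyte genes to 105, 94.6 and 86.0 CPM, against 74.2 to 121 CPM. The 8 habenula, thalamus and subcommissural organ genes came to 384, 443 and 596 CPM, against 126 to 780 CPM. The 8 pituitary genes, of which 2 were tested, came to 9.17, 1.79 and 4.30 CPM, against 1.55 to 106 CPM. The 10 hormone and lipoprotein receptors of the choroid plexus came to 945, 1088 and 574 CPM, against 814 to 1293 CPM. This list shares Prlr with the other choroid plexus epithelium genes. The 12 hypothalamus genes came to 868, 687 and 2950 CPM. Both used libraries were therefore within the range of the others for these lists. The omitted library was above it for the ependymal, leptomeningeal and hypothalamus sums and below it for the receptor sum. Not every gene went with its sum. Of the leptomeningeal genes, Ptgds (1297 CPM), Igfbp2, Aebp1 and Foxc1 were above the others, Igf2 was below them, and the rest were within their range. Of the hypothalamus genes, Avp, Oxt, Hcrt, Pomc and Sst were above the others. Sim1 was below them (2.05 CPM, against 5.87 to 18.4 CPM), and the rest were within their range. The part of these lists in the choroid plexus values was not tested further than by the following relations.

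Within the 21 libraries, Ttr and Aqp1 were set against the 8 summed lists, 16 relations chosen after the values were seen. Ttr rose with the habenula, thalamus and subcommissural organ sum (r = 0.76, permutation adjusted p = 0.00176, rho = 0.70, and r = 0.79 without the 2 libraries farthest from the median). Its r was 0.27 in the 10 d14 and 0.88 in the 11 d14+3 libraries, so the relation was seen within d14+3 and was weak within d14. That sum, with a median of 334 CPM in the 21 libraries, lay mainly in Prkcd (median 122 CPM), Tcf7l2 (78.1 CPM) and Plekhg1 (64.4 CPM). Gpr151 (2.06 CPM) and Sspo (4.69 CPM) added little to it. Ttr fell with the tanycyte sum (r = -0.65, adjusted p = 0.0115 by permutation), with r of -0.23 within d14 and -0.59 within d14+3. With the leptomeningeal sum r was 0.52 (adjusted p = 0.0834 by permutation), rho was 0.67 (adjusted p = 0.00848), and r was 0.86 within d14 and 0.74 within d14+3. Ptgds alone made up most of that sum, with a median of 307 CPM in the 21 libraries, where the median sum was 397 CPM. Aqp1 gave no relation past the threshold with any of the 8 lists.

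**Figure D4:**
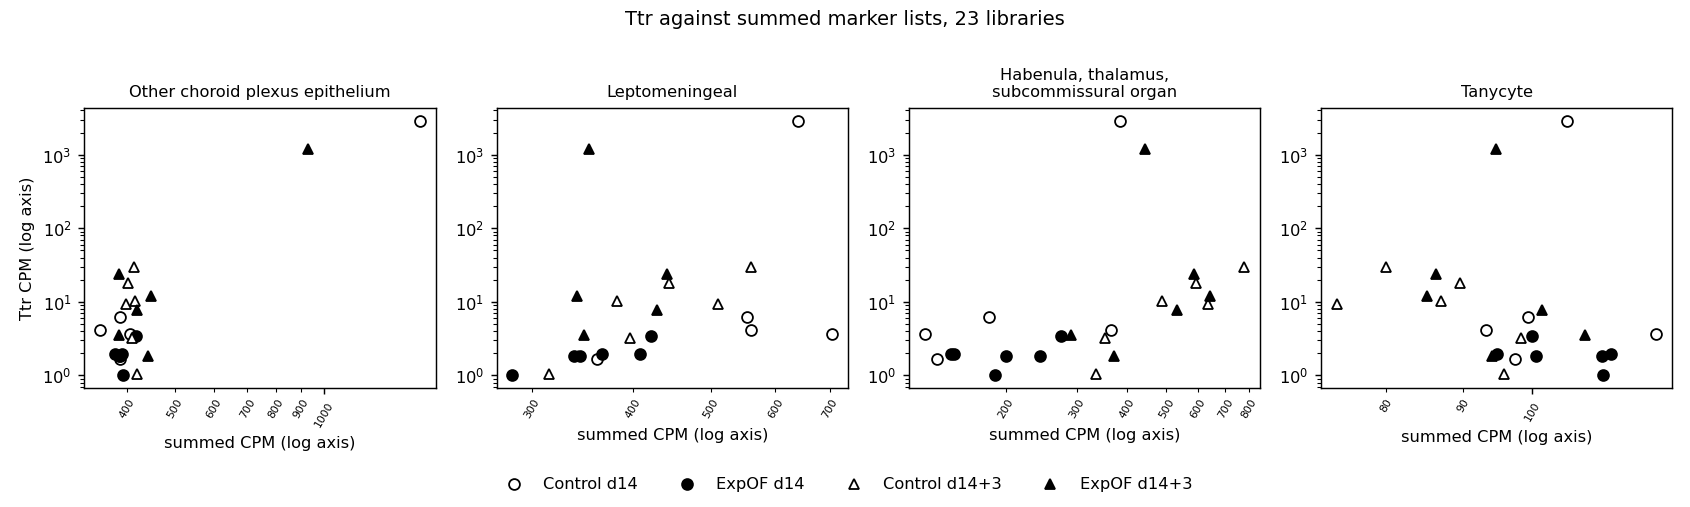
Ttr CPM against the summed CPM of 4 marker lists in the 23 libraries, on log axes, with circles for d14, triangles for d14+3, open symbols for Control and filled symbols for ExpOF mice. The pair of libraries at 2889 and 1204 CPM of Ttr stand to the right of the others for other choroid plexus epithelium genes, at 1562 and 930 CPM, and within their range for the other 3 lists.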

How the data were processed

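Hypothalamic RNA of 24 mice was measured as poly-A selected, stranded, paired-end libraries. The authors aligned reads with STAR to mm10 and counted them per GENCODE vM22 gene with featureCounts 1.6.4, and they deposited raw counts per gene with gene length and position. Symbols came from GENCODE vM21 and covered 55144 of 55471 genes. Groups came from the labels. Control d14 replicate 4 was left out of fits and scaled only for its own CPM.

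In R 4.3.3, edgeR 4.0.16 (TMM scaling, filterByExpr with a minimum count of 10, robust quasi-likelihood F-test on group, Benjamini-Hochberg over all tested genes) fitted the 23 libraries together. Each SE of an edgeR log2 fold change was derived as its absolute value over the square root of the F statistic. Log2 CPM for spread, exact permutation tests and correlations used a prior count of 2, and correlations 100000 resamples. Alternatives were DESeq2 1.42.0, other filters and covariates, cohorts alone and each library left out. The fit was tested on simulated data. Of 60 replicate pairs, 0 agreed within sampling noise (lowest chi-square per degree of freedom 2.78).

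The 10 genes and the marker lists were chosen with earlier results of these data known. All 10 are named, with the 5 most abundant genes of the other choroid plexus list and the 10 genes most alike over the 23 libraries. P-values measure spread between mice. Promoters are RefSeq entries, and gene coordinates were not converted between builds.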

Additional observations from a re-analysis of the deposited data

Results flagged for a closer look

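Within a group of 5 or 6 mice, 17 of 40 gene-by-group sets had a highest library separated from the next by more than Dixon's limit, which chance passes in about 5% of sets. The sets are not independent, since the 10 genes share libraries. The genes were also chosen as variable between dissections, so the count describes them and is no test against that share. The limit assumes normal values and was applied to CPM, not to log2 CPM. Control d14 replicate 5 gave 9 of the 17, with Ttr at 2889 CPM, Kl at 58.6, Folr1 at 23.2, Clic6 at 52.0, Aqp1 at 14.8, Slc4a5 at 14.4, Sostdc1 at 18.7, Tmem72 at 14.1 and F5 at 31.8 CPM. ExpOF d14+3 replicate 4 gave the other 8, with Ttr at 1204 CPM, Kl at 33.4, Folr1 at 9.75, Clic6 at 41.0, Slc4a5 at 7.11, Sostdc1 at 8.78, Tmem72 at 8.21 and F5 at 11.4 CPM. ExpOF d14 and Control d14+3 gave none, and Calml4 was not set apart by this limit in any group.

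The library omitted from the fits, Control d14 replicate 4, exceeded all 5 used Control d14 libraries in 3 genes. These were Ttr at 4426 CPM (next highest 2889), Aqp1 at 19.5 CPM (next highest 14.8) and Calml4 at 14.2 CPM (next highest 6.26).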

How the results depend on the processing

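Depth limits Slc4a5 and Tmem72 most, which rest on 1 to 16 reads outside the high libraries and drop below the filter in some fits without them. Log2 fold changes of members turned direction in few fits. Without both high libraries, a setting chosen after seeing the data, F5 d14 was 0.067, Clic6 d14+3 -0.029, Folr1 d14+3 -0.31, Sostdc1 d14+3 -0.22 and Ttr d14+3 -0.32. In that setting the difference between days was -0.46 for Aqp1, -0.20 for Calml4, -0.023 for Clic6 and -0.30 for Folr1, and the cohort difference was -0.42 for Folr1 and -0.014 for Sostdc1. In the July cohort alone, Clic6 d14 was 0.092, F5 d14 0.11, Clic6 d14+3 -0.032, Folr1 d14+3 -0.23 and Sostdc1 d14+3 -0.34, and the difference between days was -0.31 for Calml4 and -0.12 for Clic6. In September alone Calml4 d14+3 was 0.10. Leaving out 1 library at a time gave ranges of -0.34 to 0.00034 for Clic6 d14 and -2.51 to 0.074 for F5 d14 (highest without Control d14 replicate 5). For d14+3 they were -0.75 to 0.19 for Aqp1, -0.029 to 0.15 for Clic6, -0.31 to 1.62 for Folr1, -0.22 to 0.59 for Sostdc1 and -0.34 to 4.60 for Ttr (lowest without ExpOF d14+3 replicate 4). The correlation with Ttr was 0.18 for Clic6, -0.10 for Sostdc1 and -0.14 for Tmem72 in September, 0.13 for F5 as deviations from group means, and ran from -0.21 to 0.11 for Clic6 and -0.20 to 0.035 for F5 with 1 library left out.

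Genes called on d14 (1) came to 166 by DESeq2, 0 in either cohort alone, 2 with only the groups compared, and 1 to 4220 with 1 library left out (4220 without Control d14 replicate 1). On d14+3 (0) they came to 55 by DESeq2 and 26 with RIN as a covariate. Genes called between cohorts (0) came to 236, 8 of them members, with a minimum of 1 count in all libraries together, and to 0 to 1 with 1 library left out. The fit with 236 genes still held both high September libraries. Its share of all genes is not given here, so the 8 is not read as a result about the members. Members called on d14 (0) came to 0 to 5 with 1 library left out. The 5 were called without Control d14 replicate 1, where 22% of tested genes were called. Members with an exact p under 0.05 on d14 (3 of 10, against 24.4% of tested genes) came to 0 in either cohort alone, where the mice are too few for an exact p below 0.1, and on d14+3 (0) to 0 to 1 with 1 library left out. Members that followed Ttr (1) came to 2 as deviations from group means, 0 in July, 2 in September and 1 to 2 with 1 library left out. The share of all genes that followed Ttr was taken in the main setting only, at 21.2%. The cause of these shifts was not tested. The replicate block left the count on d14 at 1 gene and changed no member's call. Its numbers do not pair the mice, as the 33 same-number pairs of libraries had r from -0.255 to 0.364 (median -0.0316), and 1 of 23 libraries correlated best with its own number.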
